A study of Mus musculus with 4 samples.

Results

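The CD3 gene cluster holds Cd3e, Cd3d and Cd3g, which encode the invariant chains of the T cell receptor complex. Its accessible sites were taken as every DNase I peak of the 4 deposited lists whose midpoint lay on mouse chromosome 9 between 44760000 and 44840000 (build mm9), a window of 80 kb. The window held 30 of 84735 peaks, and these merged into 12 of the 38986 sites of the whole series. The window was set by position and not by any measured value. In RefSeq's annotation of GRCm38.p6 the genes stand in the order Ube4a, Cd3g, Cd3d, Cd3e and Mpzl2, with an annotated pseudogene, Gm19121, between Ube4a and Cd3g. Within mm9 the position of Cd3e was known only approximately, from 44.807 to 44.817 Mb, and no mm9 annotation was used here, so no site is assigned to a start site, exon or intron. For the same reason no site is assigned to a gene, and sites of the window may belong to neighbours such as Ube4a or Mpzl2.

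CD3 epsilon pairs with CD3 delta and with CD3 gamma, and these pairs join the antigen-binding T cell receptor chains and the zeta chain (Cd247) on the cell surface. Each of the 3 proteins has an immunoglobulin-like outer domain and a cytoplasmic tail with an activation motif that the kinase Lck phosphorylates. Without CD3 epsilon, thymocytes do not pass the early stage of T cell development. The genes are neighbours in mammals and are expressed across the T lineage, and accessible chromatin around them is a mark of T cells.

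The cells were naive CD8+ T cells from mouse spleen, sorted as GFP+ TCRbeta+ CD62Lhi CD44lo-med CD8+, cultured during 72 h with IL-7 and IL-15, cytokines that keep T cells alive. The sample titles of both groups label these cells as stim CD8. Their chromatin was then cut with DNase I, which prefers accessible DNA. Knockout cells (double knockout, DKO, 2 libraries) came from mice with floxed Tcf1 and Lef1 alleles, and control cells (WT, 2 libraries) from mice with wild-type alleles. Both groups carried the hCD2-Cre transgene, which is active in lymphocytes, and the Rosa26-lsl-GFP reporter, which Cre switches on. Tcf1 and Lef1 are related DNA-binding factors of the T lineage, and the comparison asks which accessible sites differ without them. The age of the mice is not in the labels. Nor is it stated that the replicates were separate animals, so differences between replicates may be technical. The exact p-values only compare ways of relabelling these 4 libraries.

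The lists held 34788 and 21353 peaks for DKO replicates 1 and 2, against 17521 and 11073 for WT replicates 1 and 2. Peaks on chromosome Y numbered 55 and 57 in the DKO lists and 0 in both WT lists, and the labels give no sex, so a difference in sex and the loss of the factors cannot be told apart. Marker genes of other cell types were not placed on mm9 and are not analysed here. The lowest local background, which grows with read depth, was 1.23 and 1.15 fragments in the DKO lists, against 1.50 and 1.47 in the WT lists. A missing peak means that a site did not pass the listing thresholds of that library, not that it was closed. These are bulk libraries, so fewer cells with an accessible site and less access per cell cannot be told apart.

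Promoters of the 3 genes are shown because Tcf1 and Lef1 bind the letters CTTTGA, and they were searched for this motif and for those of other T lineage factors. The sequences are RefSeq's, from GRCm38.p6, chromosome 9, and give the 250 bases before each gene's start on the gene's own strand, 5′ to 3′ (Cd3e and Cd3g on the reverse strand of the chromosome, Cd3d on the forward strand). Capitals mark matches on either strand to CTTTGA (TCF/LEF), GGAAGT (ETS family) or AGATAA (the motif of GATA factors).
Cd3d: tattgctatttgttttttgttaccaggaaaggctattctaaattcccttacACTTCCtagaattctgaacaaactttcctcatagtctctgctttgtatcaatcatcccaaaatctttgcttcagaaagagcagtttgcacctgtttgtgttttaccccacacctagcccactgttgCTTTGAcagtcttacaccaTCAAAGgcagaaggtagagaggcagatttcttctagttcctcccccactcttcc
Cd3e: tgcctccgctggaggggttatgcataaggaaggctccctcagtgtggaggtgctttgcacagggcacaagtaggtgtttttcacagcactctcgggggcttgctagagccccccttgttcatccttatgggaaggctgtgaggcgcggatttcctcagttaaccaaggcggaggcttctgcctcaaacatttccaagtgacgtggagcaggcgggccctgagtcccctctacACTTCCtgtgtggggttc
Cd3g: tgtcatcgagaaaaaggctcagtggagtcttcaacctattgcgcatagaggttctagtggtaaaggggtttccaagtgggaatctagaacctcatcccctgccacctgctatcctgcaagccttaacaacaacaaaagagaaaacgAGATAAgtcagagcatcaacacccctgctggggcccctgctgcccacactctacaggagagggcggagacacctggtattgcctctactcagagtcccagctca

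The Cd3d promoter held 2 TCF/LEF matches, beginning 73 and 54 bases before the gene's start on opposite strands, and an ETS match beginning 199 bases before it. The Cd3e promoter held an ETS match beginning 18 bases before the start, and the Cd3g promoter a GATA match beginning 104 bases before it. None of the 3 windows held the RUNX letters TGTGGT, the E-box form CAGCTG or the CTCF core motif. Other forms of the E-box were not searched for. Over all 32851 promoter windows of the same length in the table, 13.8% held at least 1 TCF/LEF match and 1.37% at least 2. An ETS match was present in 19.7%, GATA in 9.99%, RUNX in 14.0%, the E-box form CAGCTG in 13.0% and the CTCF core in 0.508%. Of 31 other genes of T cell receptor signalling, 22 had a promoter in the table, and as some genes have several, these made 30 windows. A TCF/LEF match was present in 6 of the 30 windows (20.0%, against the 13.8% of all windows), each of a different gene, namely Fyn and Zap70 (kinases), Lcp2, Sit1 and Trat1 (adaptors) and Ptprc (the phosphatase CD45), and 0 of the 30 windows held 2 matches. A match describes letters only, and whether a called site covers these promoters was not determined, because the peaks are placed on mm9.

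More sites of the CD3 window were called in DKO cells. The DKO lists had 12 and 9 peaks in the window, against 6 and 3 in the WT lists, for replicates 1 and 2. The means were 10.5 ± 2.12 in DKO and 4.50 ± 2.12 in WT (SD, n = 2 each), and the groups did not overlap. The mean log2 difference was 1.29, with an exact two-sided permutation p of 0.33, the smallest that 2 against 2 libraries allow. The peaks covered 2534 and 1361 bp in the DKO lists, against 1171 and 651 bp in the WT lists, a log2 difference of 1.09 with an exact two-sided permutation p of 0.33. No covered length of the whole lists stands beside these values, and the DKO lists are the longer ones. Relative to list length, the window took 0.0345 and 0.0421% of the DKO lists, against 0.0342 and 0.0271% of the WT lists. By this share DKO replicate 1 and WT replicate 1 were nearly equal, while WT replicate 2 was lowest. With each list held to its 11073 strongest peaks by −log10 p, the window held 6 and 5 DKO peaks against 5 and 3 WT peaks. These lists ended at a −log10 p of 27.3 and 13.6 in DKO, against 10.8 and 5.40 in WT, where WT replicate 2 kept its whole list. The log2 difference was then 0.50 and the groups touched at 5 peaks (exact two-sided permutation p = 0.67). Leaving out WT replicate 2 lowered the log2 difference over the full lists to 0.79. The covered length gave log2 differences of 0.64 without DKO replicate 1 and 0.67 without WT replicate 2.

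**Figure D1:**
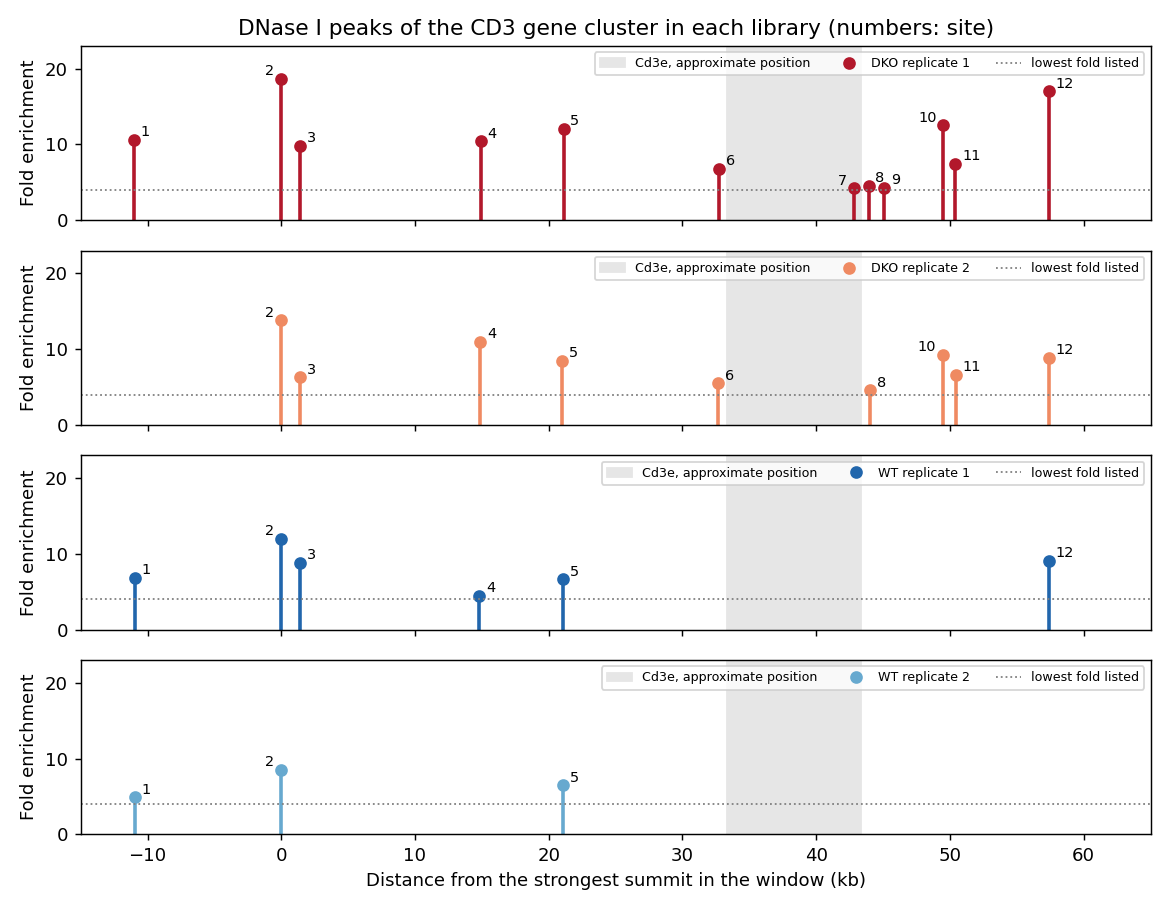
Each panel is 1 library, with a stem at the summit of each peak of the CD3 window. The horizontal axis is the distance in kb from the strongest summit in the window, the vertical axis the deposited fold enrichment within that library's own list, the dotted line the lowest fold listed, the numbers the sites 1 to 12, and the grey band the approximate position of Cd3e. Sites 1 to 5 have calls in DKO and WT lists, and sites 6 to 11 have calls in DKO lists only.

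The 12 sites are numbered by position, and the map of folds by library shows them. Sites 2 and 5 were called in all 4 libraries (16.7% of the 12 sites, against 20.7% of all sites of the series). Sites 6, 8, 10 and 11 were called in both DKO lists and in neither WT list. These 4 DKO-only sites were 33.3% of the window, against 14.3% of all sites and 13.6% of those on chromosome 9. The window had 0 sites called in both WT lists and neither DKO list, a class that held 0.631% of all sites. Sites 3, 4 and 12 were called in both DKO lists and WT replicate 1 (25.0%, against 11.6% of all sites). Sites 7 and 9 were called in DKO replicate 1 alone (16.7%, against 31.6%), and site 1 in both WT lists and DKO replicate 1, a pattern of 1.45% of all sites. DKO replicate 1, the longest list, therefore held every site of the window, and site 1 was the 1 site with more WT than DKO calls. With 12 sites these shares are descriptions, and no test of them was made. Without WT replicate 1 the DKO-only sites numbered 7 of 12, against 27.0% of all sites. They numbered 4 of 12 without WT replicate 2, against 16.9%, and 4 of 10 without DKO replicate 1, against 27.5%. Without DKO replicate 2 they numbered 6 of 12, close to the 48.1% of all sites. Without WT replicate 2 the sites called in every remaining library numbered 5 of 12, against 32.7% of all sites. This class numbered 2 of 12 without WT replicate 1, against 23.9%. It numbered 2 of 10 without DKO replicate 1, against 30.1%, and 3 of 12 without DKO replicate 2, against 23.1%.

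Site 2 (44773594 to 44773835) was the strongest site of the window in all 4 libraries. It ended 33165 bp below the lower limit given for Cd3e, and whether it belongs to a CD3 gene or to a neighbour was not determined. Its fold enrichment, which is the authors' value for the peak against local background, was 18.6 and 13.8 in the DKO lists, against 12.0 and 8.50 in the WT lists. The summit pileup recovered from fold and p was 69 and 40 fragments in DKO, against 38 and 26 in WT, over local backgrounds of 2.76 and 1.97 against 2.25 and 2.18. Both DKO values of fold and pileup lay above both WT values. Fold ran higher in both DKO than in both WT lists at 76.9% of the 8068 sites called in all 4, so this order of folds is the common one. Such a share was not computed for pileup, which is not normalised for depth. Ranked by −log10 p among those 8068 sites, site 2 stood at percentiles 89.4 and 86.5 in DKO, against 93.8 and 82.0 in WT. The ranks of the genotypes overlapped, with a difference of means of 0.0806 percentile points (exact two-sided permutation p = 1). The 4 summits lay within 5 bp of each other, between 44773677 and 44773682. The libraries thus placed the most accessible point of the window at nearly the same position.

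Site 5 (44794441 to 44794886) was the other site called in all 4 libraries and the widest of the 12, at 446 bp. Its folds were 12.0 and 8.40 in DKO, against 6.63 and 6.45 in WT, and again both DKO folds were above both WT folds. Its pileups were 51 and 28 fragments in DKO, against 29 and 23 in WT, so the pileups overlapped. Its percentiles among the sites called in all 4 were 53.1 and 44.4 in DKO, against 51.7 and 57.5 in WT, a difference of −5.79 points (exact two-sided permutation p = 0.67). Neither of the 2 shared sites ranked higher in both DKO libraries than in both WT libraries, an order that 20.0% of all shared sites had. The summit of DKO replicate 2 lay at 44794663, and the other 3 lay between 44794767 and 44794791. The site thus had its highest point up to 128 bp apart in different libraries.

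Sites 1, 3 and 4 lay on the same side of Cd3e as sites 2 and 5. Site 1 (44762569 to 44762898) had a fold of 10.6 in DKO replicate 1, against 6.80 and 4.87 in WT, with pileups of 23 against 16 and 11, and DKO replicate 2 had no peak there. At its lowest background a peak of DKO replicate 2 needed a pileup of 8 to meet the smallest fold and −log10 p in its list. Site 3 (44774960 to 44775149) began 1.12 kb beyond site 2. Its folds were 9.84 and 6.25 in DKO, against 8.77 in WT replicate 1, so the WT fold lay between the DKO folds. Its pileups were 36 and 17 in DKO, against 27 in WT replicate 1. Site 4 (44788437 to 44788680) had folds of 10.4 and 10.9 in DKO, against 4.43 in WT replicate 1, near the listing minimum of 4. Its pileups were 36 and 33 in DKO, against 17 in WT replicate 1, whose local background of 3.06 was above the 2.57 and 2.11 of DKO. Within its own list site 4 stood at percentiles 70.9 and 85.4 of −log10 p in DKO, against 19.5 in WT replicate 1. With equal list lengths its WT call was lost and site 4 joined the DKO-only class. Ranks from lists of unequal length show no change by themselves, and sites missing from a list have no rank in it.

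**Figure D2:**
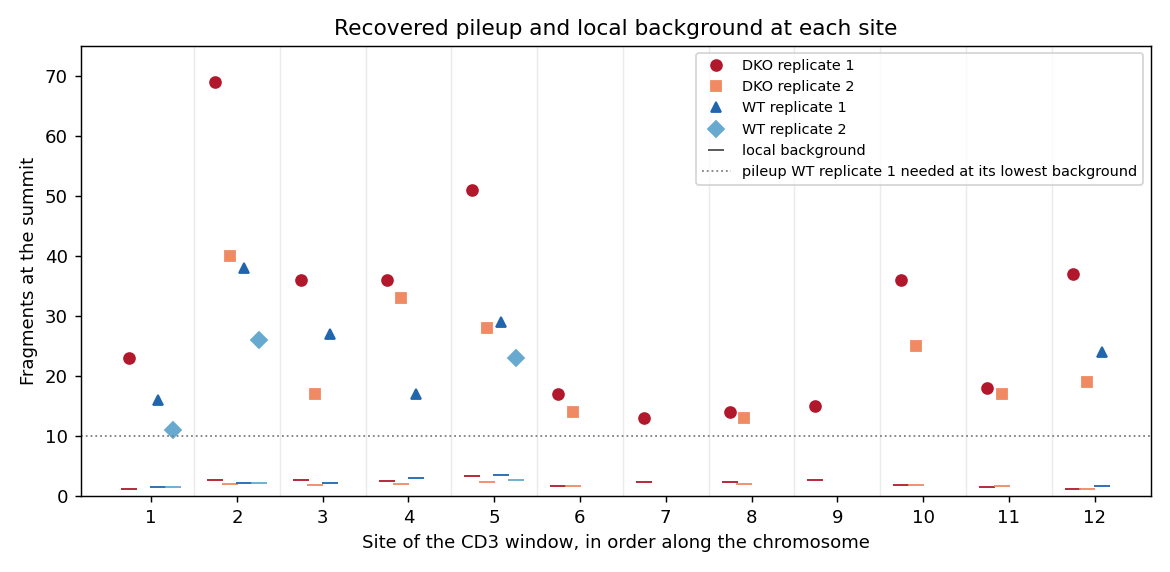
Recovered pileup at the summit (symbols) and local background (dashes), both in fragments, for each peak at the 12 sites of the CD3 window, with DKO libraries left of WT libraries within each site. The dotted line is the pileup of 10 that WT replicate 1 needed at its lowest background, 1.50. Its backgrounds at peaks of the window reached 3.52, and a higher background needs a higher pileup. All peaks at the DKO-only sites 6, 8, 10 and 11 had pileups between 13 and 36 fragments.

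Around Cd3e, calls came from DKO libraries alone. No WT list had a peak from 44794887 to 44831043, a stretch of 36.2 kb chosen after the values were seen. In it DKO replicates 1 and 2 had 6 and 4 peaks. Sites with a call in at least 1 DKO list and in no WT list were 6 of the 12 in the window, against 50.3% of all sites, so calls from DKO alone were about as frequent here as over the series. Site 6 (44806251 to 44806493) ended 507 bp below the lower limit given for Cd3e, with fold enrichments of 6.74 and 5.46 and pileups of 17 and 14 in the DKO lists. Site 8 (44817451 to 44817757) began 451 bp above the upper limit, the side on which a gene of the reverse strand starts, with folds of 4.50 and 4.55 and pileups of 14 and 13. Both distances are approximate, since the limits were given to the nearest kb. Site 7 (44816492 to 44816580) lay inside these limits and was called in DKO replicate 1 alone, with a fold of 4.18 and a pileup of 13. Site 9 (44818684 to 44818845) was likewise called in DKO replicate 1 alone, with a fold of 4.29 and a pileup of 15. Sites 7, 8 and 9 were the weakest peaks of their lists in the window, and site 8 stood at percentiles 8.76 and 11.3 of −log10 p within the DKO lists. Above a −log10 q of 5, none of these 3 sites was called, while site 6 was still called in both DKO lists.

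The strongest DKO-only site of the window was site 10 (44823116 to 44823258), which began 6116 bp above the upper limit given for Cd3e. Its folds were 12.5 and 9.26 in DKO replicates 1 and 2, and its pileups 36 and 25 fragments over backgrounds of 1.95 and 1.81. Among all 5593 DKO-only sites, it stood at percentiles 86.5 and 90.8 of fold, above the medians of 8.16 and 6.06. Its summits were 8 bp apart. Site 11 (44824035 to 44824181) lay 776 bp beyond it, with folds of 7.41 and 6.62, pileups of 18 and 17, and summits 4 bp apart. It stood at percentiles 39.9 and 62.7 of the DKO-only sites, while site 6 stood at 30.8 and 35.1 and site 8 at 3.33 and 10.2. To be listed at its lowest background, a peak needed a pileup of 10 in WT replicate 1 and of 9 in WT replicate 2. Pileup grows with depth, and the WT pileup and local background at sites 10 and 11 are not known from the lists. At a −log10 q of at least 10, DKO-only sites of the window numbered 2 of 8 (25.0%, against 16.6% of all sites at that minimum). With equal list lengths they numbered 2 of 7 (28.6%, against 5.75% of all sites at that length). Those at equal length were sites 4 and 10.

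Site 12 (44831026 to 44831206) was the last site of the window, on the Mpzl2 side of Cd3e in the gene order above. Its folds were 17.0 and 8.82 in DKO, against 9.04 in WT replicate 1, and its pileups were 37 and 19 in DKO, against 24 in WT replicate 1. The WT values lay between those of the DKO replicates. The 3 summits fell within 10 bp, between 44831080 and 44831090. WT replicate 2 had no peak at site 12. Nor did it have one at sites 3 and 4, although WT replicate 1 did.

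**Figure D3:**
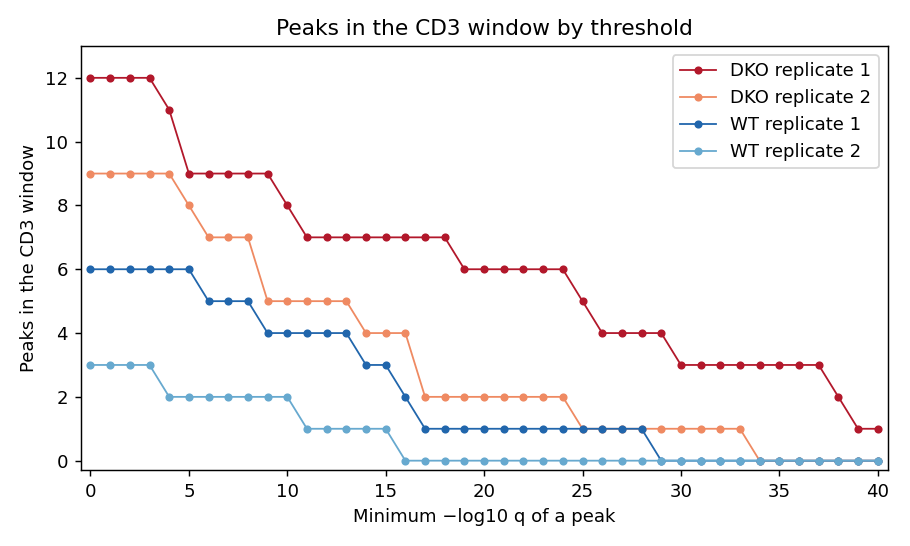
Number of peaks in the CD3 window (vertical axis) at whole-number minimums of −log10 q (horizontal axis), 1 line per library. At a minimum of 5 the DKO lists held 9 and 8 peaks, against 6 and 2 in the WT lists, and at 20 they held 6 and 2, against 1 and 0.

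The order of the libraries in the window was DKO replicate 1, DKO replicate 2, WT replicate 1 and WT replicate 2 at a −log10 q minimum of 5, as over the full lists. At a minimum of 10 the DKO lists kept 8 and 5 peaks, against 4 and 2 in the WT lists, and at 20 they kept 6 and 2, against 1 and 0. The plot of peak number by threshold shows that DKO replicate 2 and WT replicate 1 differed by 1 peak at several minimums and met at 25, where each held 1. The order is also that of the list lengths, and its part in the result was not tested.

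The CD3 window was dense in accessible sites. On a fixed grid of 80 kb windows, 12298 windows held at least 1 site, with a median of 2, and 92 of them (0.748%) held 12 or more. At least 4 DKO-only sites were present in 77 grid windows (0.626%). Of the 92 windows as dense as the CD3 window, 18 (19.6%) held that many. The CD3 window was placed around the genes and does not fall on this grid, whose windows are cut at arbitrary points. The shares are therefore only a rough comparison. The sites did not run on evenly beyond the window: the nearest site below it lay 30.9 kb from its edge and the nearest above it 16.8 kb, each called in DKO replicate 1 alone.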

How the data were processed

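DNase-seq libraries of mouse CD8+ T cells, 2 per genotype, were grouped by the sample titles. The submitters' processing notes name Bowtie2 2.2.5, FastQC, MACS2 2.1.1 and mm9. Settings, any control library and duplicate handling are not given in any source used here. Peaks were listed per library. For each peak the authors deposited a fold enrichment (ratio), a −log10 p, a −log10 q, a score (10-fold the −log10 q), and positions counted from 0, converted here to count from 1. Each fold belongs to its own list. Where folds or pileups of different libraries are printed side by side or put in order, they are not normalised between libraries.

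Peaks overlapping by at least 1 bp were merged into sites. MACS2's fold is (pileup + 1)/(background + 1), and its p a Poisson tail. Both were solved for pileup and background at a −log10 p under 250. The pileup was whole within 0.02 for 100% of solved peaks in each list, and on simulated peaks the solution recovered 100% of 4659. Percentiles rank the highest −log10 p of a site. Depth per library is unknown, so no counting interval is given.

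The members, the lists and the tests were chosen with earlier results of these data known. The naming rule was to name every site, with the values in each library where 2 or more lists held it. Planned work on pathway promoters and cell type markers by position, and on motifs within peaks, needed an mm9 genome and was not done; motifs were searched in RefSeq promoters instead. Alternatives were equal list lengths, a −log10 q of at least 5 or 10, any overlap with the window, merging within 500 bp, summits within 150 bp, a call in 1 library, ranking by fold and leaving out each library. Python 3.11.15, pandas 2.3.3, numpy 2.4.6, scipy 1.17.1 and matplotlib 3.10.9 were used.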

Additional observations from a re-analysis of the deposited data

How the results depend on the processing

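Of 57 recomputed values, 50 kept their direction or stayed within 1.5 times of the reported count. The 50 include the values with the replicate number as a block, which could not differ from the reported ones. They also include those for any overlap with the window, which were identical because no peak crossed its edges. DKO-only sites numbered 2 at a −log10 q of at least 10 and 2 at equal list lengths. At equal lengths WT-only sites numbered 1 of 7, against 4.61% of all sites. It was site 1, whose DKO replicate 1 peak fell below the 11073 strongest. Leaving out each library gave log2 differences of 0.79 to 1.79 in peak number and 0.64 to 1.54 in covered length, 4 to 7 DKO-only sites, 0 to 1 WT-only sites and 2 to 5 sites called in every library. The mean percentile difference of the 2 shared sites, −2.86, ran from −5.76 to 0.0434 and changed sign without DKO replicate 2. With the replicate number as a block, the differences of 1.29, 1.09 and −2.86 could not change, because the mean of the paired differences equals the difference of means. For peak number and covered length the exact permutation p was 0.50 each, the smallest the block allows. Deviations of same-numbered libraries correlated at −0.01 over 8068 shared sites, and the labels give no pairing beyond the number. With 2 libraries per genotype no test here could pass 0.05, and sites just under a listing threshold cannot be seen.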
